A study of Drosophila melanogaster with 27 samples.

Results

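The heat-inducible Hsp70 genes of *Drosophila* were followed across an RNA immunoprecipitation of TDP-43. They comprise 6 near-identical copies (Hsp70Aa, Hsp70Ab, Hsp70Ba, Hsp70Bb, Hsp70Bbb and Hsp70Bc) and their diverged relative Hsp68. All 7 were found by FlyBase identifier among the 17529 genes of the count table, and all 7 passed the filter on low counts, which kept 12921 genes in the comparison of immunoprecipitate and input. The 6 copies were read singly and as 1 summed count.

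Hsp70 proteins are ATP-driven chaperones that bind unfolded stretches of other proteins and help them fold, disaggregate or reach degradation. In flies the inducible copies are nearly silent without stress and are switched on by the transcription factor Hsf within minutes of heat or other protein damage, whereas the constitutive relatives, called Hsc70, are transcribed at all times. TDP-43 is an RNA-binding protein that forms cytoplasmic inclusions in amyotrophic lateral sclerosis and frontotemporal dementia, and Hsp70 chaperones are among the factors that act on such aggregates.

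RNA came from pooled heads of adult flies aged 1 to 3 days, with equal shares of males and females. The SS01276 split-GAL4 driver directed expression to a subset of Kenyon cells, the intrinsic neurons of the mushroom body (MB). The 3 genotypes carried wild-type human TDP-43 tagged with YFP (UAS TDP43WT-YFP, line TDP-92), its disease-linked variant (UAS TDP43G298S-YFP, line TDP-94) or YFP without TDP-43 (yw;;P[UAS-2XEYFP]AH3, line GRYFP-5), and both TDP-43 lines were in a w background and also carried UAS mCD8-RFP on chromosome II. Each genotype was represented by 3 lysates, named here by genotype and label number (WT-202, WT-502 and WT-505, G298S-203, G298S-503 and G298S-506, YFP-201, YFP-901 and YFP-902), and each lysate gave an input, an immunoprecipitate on GFP-Trap beads (IP) and an unbound library, 27 in all. The YFP line lacked the membrane marker mCD8-RFP and had another background, so effects of TDP-43 and of these differences cannot be told apart. According to the study's methods YFP alone was also more strongly expressed than the TDP-43 fusions. The human and YFP transgenes are not rows of the fly gene table, so their expression was not analysed here. Each lysate was a separate pool of flies, so the spread between lysates includes biological variation.

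The 7 genes lie on chromosome arm 3R, and each is a single exon of 2231 to 2386 bases in the Ensembl annotation. Hsp70Aa and Hsp70Ab stand next to each other, separated only by a transposon fragment. Hsp70Bbb, Hsp70Bb and Hsp70Bc follow one another as a row, and Hsp70Ba is set apart from that row by transposon copies. Because reads that match several copies can be split, dropped or assigned by counting settings that are not given in the sources used here, the level of a single copy is uncertain and the summed count is the safer quantity. Hsp70Ab also overlaps CG3281 by 27 bases and Hsp68 overlaps lncRNA:CR44097 by 13 bases, and the library kit does not mark strand. All 3 genotypes carried UAS transgenes, and UAS vectors commonly include the minimal promoter and leader of an Hsp70 gene. Reads from such a leader and from the endogenous gene cannot be told apart in a count per gene.

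Total counts per library ran from 1848426 to 157035496, with the lowest in the IP of G298S-503. Over the 27 libraries Hsp68 collected 8747 counts, Hsp70Bb 6712, Hsp70Ab 5009, Hsp70Aa 2863, Hsp70Bc 2301, Hsp70Ba 2146 and Hsp70Bbb 314. Hsp70Bbb was listed at 0 in 3 libraries and Hsp70Bc in 1. Libraries of the same lysate deviated together from their group means, with correlations across genes of 0.34 to 0.73 between input and IP in the 8 other lysates but only 0.06 in WT-502, which stood apart. Among the 6 TDP-43 lysates, after the mean of each fraction was subtracted, the WT-502 IP correlated with its own input at 0.09, below its values with the inputs of G298S-506 (0.22) and WT-202 (0.16), whereas the other 5 IPs each correlated best with their own input (0.34 to 0.69). Whether the WT-502 IP belongs to the lysate and genotype on its label could not be settled, and the label is used throughout. Kenyon cell markers were detected in every group (10 of 10), and their summed level was 726 to 1191 CPM (counts scaled to the TMM-adjusted library size) in WT inputs, 1052 to 1097 in G298S inputs and 366.8 to 516.9 in YFP inputs. Other marker lists also differed between the inputs: neuron markers summed to 807.9 to 1430, 1239 to 1271 and 504.5 to 668.1 CPM in WT, G298S and YFP, photoreceptor markers to 13400 to 20810, 10860 to 11940 and 21900 to 28250 CPM, and accessory gland markers to 68.6 to 720.9, 152 to 623.3 and 0.0548 to 63.1 CPM. Their part in the Hsp70 values was not tested.

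In the inputs, which sample RNA of the whole head preparation, accessory gland transcripts included, the inducible Hsp70 genes were weakly expressed. Per kilobase of exon, the median input level over the 9 lysates was 4.36 CPM for Hsp68, 2.08 for Hsp70Bb, 1.98 for Hsp70Ab, 0.947 for Hsp70Aa, 0.808 for Hsp70Ba, 0.712 for Hsp70Bc and 0.147 for Hsp70Bbb. The summed level of the 6 copies was 9.44, 12.4 and 63.3 CPM in the WT inputs, 8.65, 9.11 and 24.2 CPM in the G298S inputs and 12.3, 22.1 and 62.6 CPM in the YFP inputs. Every genotype thus had 1 input well above its other 2, and the genotypes overlapped.

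None of the 7 genes differed between genotypes in the inputs by edgeR's quasi-likelihood test at an adjusted p below 0.05. Among all genes tested, 14.9% passed for WT over YFP, 27.3% for G298S over YFP and 0.248% for WT over G298S. For the summed copies the log2FC was -0.00 (SE 0.73, adjusted p = 0.998) for WT over YFP, -1.08 (SE 0.74, adjusted p = 0.275) for G298S over YFP and 1.08 (SE 0.74, adjusted p = 0.768) for WT over G298S. Leaving out 1 lysate at a time moved these values to between -1.46 (without WT-202) and 0.77 (without YFP-201), between -1.76 (without G298S-203) and -0.31 (without YFP-201), and between -0.37 (without WT-202) and 1.76 (without G298S-203), so that the first and the last changed direction. The median log2FC of the 7 genes was 0.04, -1.13 and 1.15 in these 3 comparisons, against 0.13, 0.09 and 0.05 over all genes. In G298S over YFP the log2FC of all 7 lay between -1.88 (Hsp70Bc) and -0.55 (Hsp70Bb). In such bulk libraries, fewer expressing cells and less RNA per cell cannot be told apart.

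Lysates of 1 genotype differed widely. The 3 inputs with the highest summed Hsp70 level were WT-202, YFP-201 and G298S-203, 1 of each genotype, and their longer label numbers share a prefix. The prefixes split the 9 lysates into 3 sets. WT-202, G298S-203 and YFP-201 form the set with all genotypes, the other TDP-43 lysates form another, and YFP-901 and YFP-902 form the last, so that outside the first set prefix and expression of TDP-43 cannot be told apart. Of the 7 genes, 5 (Hsp70Ab, Hsp70Ba, Hsp70Bb, Hsp70Bbb and Hsp68) were higher in all 3 of these inputs than in any of the other 6. That was so for 0.292% of all 13349 genes compared. These inputs were singled out by the summed Hsp70 level, so for the copies within that sum the count follows in part from the choice. Hsp68 is outside the sum. Hsp70Ba gave 3.63 CPM in G298S-203, 9.08 CPM in YFP-201 and 11.6 CPM in WT-202, against 0.538 to 1.93 CPM in the other inputs. Hsp68 gave 12.2, 29.6 and 28.6 CPM in the same lysates against 5.98 to 10.7 CPM elsewhere. For Hsp70Aa and Hsp70Bc the ranges overlapped, since the YFP-902 input lay above that of G298S-203.

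In a fit to the 9 inputs with genotype and label prefix as terms, this prefix against that of the other TDP-43 lysates gave a log2FC of 1.95 (SE 0.29) for the summed copies, 2.62 (SE 0.38) for Hsp70Ba, 1.30 (SE 0.41) for Hsp70Bb and 1.27 (SE 0.27) for Hsp68. Unadjusted p values of the 7 genes ran from 1.69e-04 to 0.0152, but after adjustment over all genes none passed (adjusted p = 0.597 for each). With edgeR 0 of 13151 genes were called in this term, while at an unadjusted p below 0.05 it had 71 higher and 996 lower genes. No YFP lysate carries the prefix of the other TDP-43 lysates, so the TDP-43 inputs alone set the log2FC of this term. YFP-201 adds nothing to it. This term was read as a result of its own only after the levels had been seen. What the shared prefix stands for is not given in the labels.

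**Figure D1:**
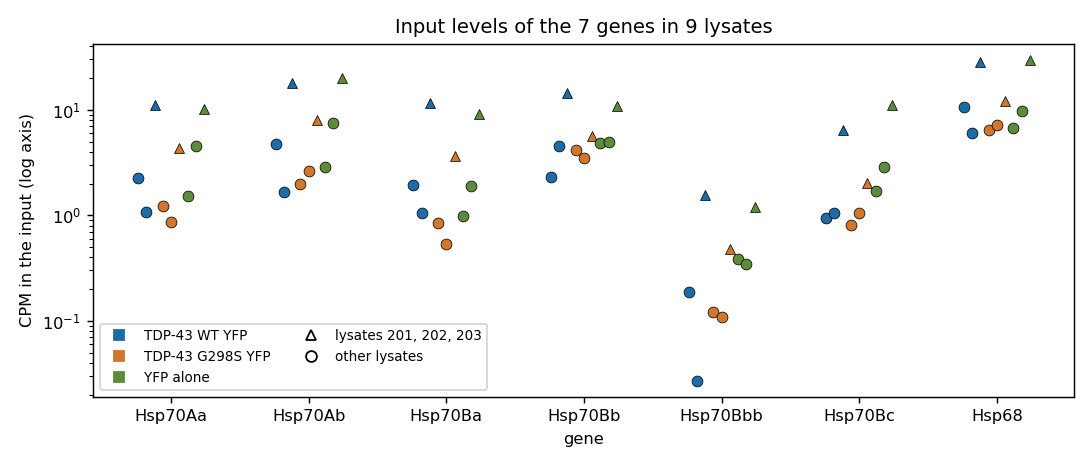
Level of each of the 7 genes in the 9 inputs, in TMM-scaled CPM on a log axis, 1 point per lysate, coloured by genotype. Triangles mark WT-202, YFP-201 and G298S-203, which lie above every circle for Hsp70Ab, Hsp70Ba, Hsp70Bb, Hsp70Bbb and Hsp68.

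The members did not vary to the same degree. Over the 9 inputs the highest CPM was 6.24 times the lowest for Hsp70Bb and 4.96 times for Hsp68, but 12.1 to 21.6 times for Hsp70Aa, Hsp70Ab, Hsp70Ba and Hsp70Bc. The 5 copies other than Hsp70Bb, summed, spanned 10.6-fold. Hsp70Bb made up 17.25 to 48.1% of the 6-copy count in the inputs. Its share was 17.25, 22.95 and 23.45% in the 3 inputs of the shared prefix. It was 18.8% in WT-502 and 22.6% in YFP-902, and 39.6 to 48.1% in the 4 inputs with the fewest CPM of the other copies. Hsp70Ab was the other abundant copy, with 17.8 to 38.1%, and Hsp70Bbb stayed at 0.287 to 3.11%.

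The comparison of IP with input asks which transcripts were recovered with the tagged protein. By the counts assigned to each copy, Hsp70Bb was the member that rose in the TDP-43 IPs. Its input and IP levels were 2.33 and 28.95 CPM in WT-502, 4.54 and 60.1 CPM in WT-505, and 14.5 and 79.9 CPM in WT-202. In the G298S lysates they were 4.14 and 22.7 CPM in G298S-503, 3.48 and 29.7 CPM in G298S-506, and 5.68 and 35.8 CPM in G298S-203. With YFP alone they were 4.87 and 5.45 CPM in YFP-901, 4.99 and 2.41 CPM in YFP-902, and 10.8 and 7.13 CPM in YFP-201. The lowest of the 6 TDP-43 IPs thus exceeded the highest input of any genotype, while the 3 YFP IPs lay among the inputs.

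Hsp70Bb was enriched in the WT IP at a log2FC of 2.94 (SE 0.60, adjusted p = 0.00152, edgeR) and in the G298S IP at 2.64 (SE 0.59, adjusted p = 0.00443). In the YFP IP its log2FC was -0.33 (SE 0.59, adjusted p = 0.739). An enriched call requires a log2FC above 1 and an adjusted p below 0.05. Thus 1 of 7 members was called in the WT IP, 1 in the G298S IP and 0 in the YFP IP, where 10.5%, 7.39% and 10.3% of all genes were called. The median log2FC of the 7 members was 0.15 in WT, 0.16 in G298S and 0.26 in YFP, against -0.09, -0.16 and -0.14 over all genes. Leaving out WT-502 gave 2.82 (adjusted p = 0.00443) for Hsp70Bb in the WT IP, and leaving out WT-502 and G298S-203 together gave 2.81 (adjusted p = 0.0105) in WT and 2.71 (adjusted p = 0.0137) in G298S. G298S-203 was dropped there because an exchange with WT-502 had been considered. The G298S-203 IP, however, correlated best with its own input (0.49).

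**Figure D2:**
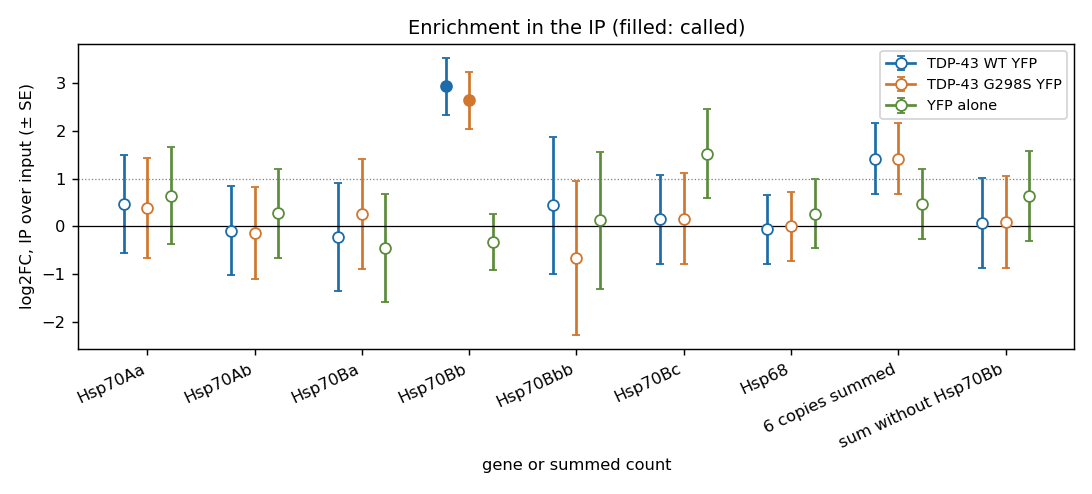
Log2FC of IP over input with its SE for the 7 genes, for the 6 copies summed and for the sum without Hsp70Bb, by genotype (18 libraries, edgeR). Filled points were called, which holds for Hsp70Bb at 2.94 in WT and 2.64 in G298S, and the dotted line marks a log2FC of 1.

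The other 6 members were not called in any IP. Hsp70Aa had a log2FC of 0.47 in WT, 0.38 in G298S and 0.65 in YFP. For its neighbour Hsp70Ab the values were -0.09, -0.14 and 0.27. Hsp70Ba gave -0.22, 0.26 and -0.45, and the SE of all these values was 0.93 to 1.15. The rarest copy, Hsp70Bbb, gave 0.44 (SE 1.44), -0.67 (SE 1.61) and 0.13 (SE 1.43). Hsp68 stayed near 0, at -0.06 (SE 0.72), 0.00 (SE 0.73) and 0.26 (SE 0.72). In WT-505, for example, Hsp68 had 5.98 CPM in the input and 4.30 CPM in the IP while Hsp70Bb went from 4.54 to 60.1 CPM. Summing the 5 copies other than Hsp70Bb gave a log2FC of 0.08 (SE 0.94) in WT, 0.09 (SE 0.96) in G298S and 0.63 (SE 0.94) in YFP.

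For all 6 copies together the log2FC was 1.42 (SE 0.74, adjusted p = 0.187) in WT, 1.42 (SE 0.75, adjusted p = 0.200) in G298S and 0.47 (SE 0.73, adjusted p = 0.696) in YFP, none of them called. With the lysate as a block, so that each IP is set against its own input, the summed copies were called in WT (log2FC 1.84, adjusted p = 1.64e-04) and in G298S (1.53, adjusted p = 9.97e-04) but not in YFP (0.53, adjusted p = 0.159). They were also called without WT-202, YFP-201 and G298S-203 (2.31, adjusted p = 0.00106 in WT, 1.78, adjusted p = 0.00659 in G298S). Without WT-202 alone the WT value was 2.31 (adjusted p = 0.0299). Every one of the 9 lysates had more summed Hsp70 CPM in the IP than in the input, by 0.99 to 2.74 on the log2 scale in WT, 1.17 to 1.94 in G298S and 0.24 to 0.75 in YFP.

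Set in order of their mean over 3 lysates, the summed levels were 79.7 CPM ± 41.7 (SD, n = 3) in the WT IP, 41.0 ± 28.8 in the YFP IP, 39.9 ± 13.5 in the G298S IP, 33.6 ± 30.5 in the YFP unbound fraction, 32.3 ± 26.7 in the YFP input, 28.4 ± 30.3 in the WT input, 23.8 ± 21.8 in the WT unbound fraction, 14.0 ± 8.86 in the G298S input and 11.0 ± 7.15 in the G298S unbound fraction. No neighbours in this order differed beyond their spread, since the ranges of each adjacent pair overlapped.

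**Figure D3:**
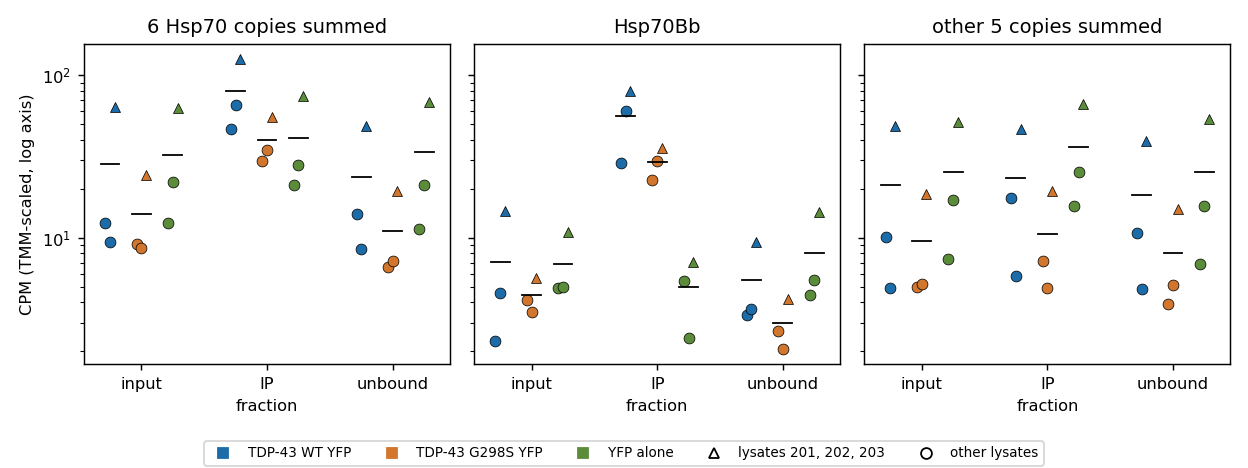
TMM-scaled CPM on a log axis in each of the 27 libraries for the 6 copies summed, for Hsp70Bb and for the other 5 copies summed, by fraction and genotype, with bars at group means. Hsp70Bb reached 22.7 to 79.9 CPM in the TDP-43 IPs against 2.41 to 7.13 CPM in the YFP IPs, while the other copies overlapped between fractions in every genotype.

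Whether the enrichment of Hsp70Bb in the TDP-43 IPs exceeded that with YFP alone was tested as the difference of the 2 log2FC values. The difference was 3.27 (SE 0.82, adjusted p = 0.0663) for WT and 2.97 (SE 0.82, adjusted p = 0.103) for G298S, which missed the threshold. It passed with the lysate as a block, at 3.59 (SE 0.40, adjusted p = 1.27e-04) and 3.02 (SE 0.40, adjusted p = 0.00302), and without WT-502, at 3.15 (adjusted p = 0.0481) and 2.97 (adjusted p = 0.0454), as well as without WT-202, at 4.01 (adjusted p = 0.00786) and 2.97 (adjusted p = 0.0407). Without WT-502 and G298S-203 together, in a fit with fewer lysates of both TDP-43 genotypes, it did not pass, at 3.14 (adjusted p = 0.100) and 3.04 (adjusted p = 0.172). Leaving out a WT lysate kept the G298S value at 2.97, so its passes there reflect the shared spread and the adjustment, not other G298S data. No fit that left out a G298S or a YFP lysate passed for G298S. Over the 19 alternatives the adjusted p (edgeR or DESeq2) reached 0.317 for WT and 0.439 for G298S. Counted over members, 0 of 7 passed in the fit without a block, where 1.26% of all genes were called for WT and 0.348% for G298S. The log2 ratio of IP to input CPM was 2.42 to 3.59 in the WT lysates and 2.32 to 2.92 in the G298S lysates, above the range of -0.92 to 0.15 in the YFP lysates. Such separation from all 3 YFP lysates occurred in 13.3% of all genes for WT and in 13.9% for G298S.

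The summed copies differed from YFP by 0.94 (SE 1.04, adjusted p = 0.803) in WT and 0.95 (SE 1.04, adjusted p = 0.805) in G298S, and without Hsp70Bb by -0.56 (SE 1.33) and -0.55 (SE 1.34). WT and G298S were set against each other for all 7 members, and none differed, with an adjusted p of 0.9998 for each, where 0.263% of all genes passed. For Hsp70Bb the difference of WT minus G298S was 0.30 (SE 0.79).

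The makeup of the 6-copy count showed the change within each library, where depth and scaling play no part. It does rest on how reads that match several copies were assigned, which is not given. Any reads from an Hsp70 leader in a transgene would also enter it. Hsp70Bb took 62.1% of it in the WT-502 IP (95% Wilson interval 57.6 to 66.4), 91.2% in WT-505 (88.9 to 93.0) and 63.2% in WT-202 (60.9 to 65.4). In the G298S IPs its share was 76.1% in G298S-503 (65.0 to 84.5, from 71 counts), 85.9% in G298S-506 (82.6 to 88.6) and 64.8% in G298S-203 (62.1 to 67.4). Within the YFP IPs it was 25.9% in YFP-901 (20.7 to 31.9), 8.65% in YFP-902 (5.93 to 12.5) and 9.64% in YFP-201 (8.15 to 11.4). These intervals cover counting error only. All 6 TDP-43 IPs lay above the range of the inputs, while 2 of the 3 YFP IPs lay below it.

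**Figure D4:**
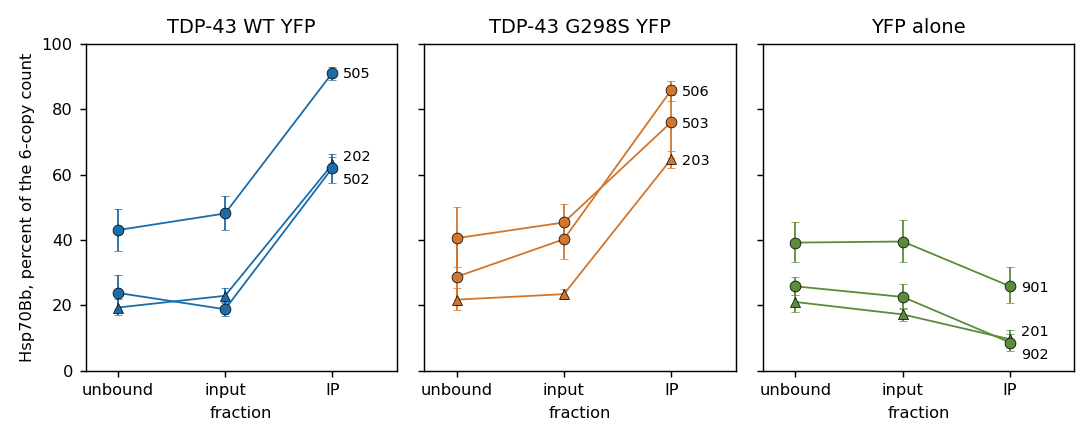
Share of Hsp70Bb in the summed count of the 6 copies in the unbound, input and IP library of each lysate, with 95% Wilson intervals, and lines joining libraries of 1 lysate. The share is higher in the IP than in the input in all 6 TDP-43 lysates, at 62.1 to 91.2%, and lower in all 3 YFP lysates, at 8.65 to 25.9%.

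From input to IP, the log2 ratio of Hsp70Bb to the other copies changed by 2.82 in WT-502, 3.47 in WT-505 and 2.52 in WT-202. In G298S-503, G298S-506 and G298S-203 it changed by 1.90, 3.16 and 2.58. In YFP-901, YFP-902 and YFP-201 it went the other way, by -0.90, -1.60 and -0.96. Part of the change with YFP lay in the other copies. In the YFP IP their sum had a log2FC of 0.63 (SE 0.94), Hsp70Bc 1.53 (SE 0.93) and Hsp70Bb -0.33 (SE 0.59), none called. In YFP-901 Hsp70Bb itself went from 4.87 to 5.45 CPM. The mean change of the ratio in the 6 TDP-43 lysates lay 3.90 above that in the 3 YFP lysates. Among the 3 lysates that share a prefix the changes were 2.52 in WT-202, 2.58 in G298S-203 and -0.96 in YFP-201. From input to unbound, the same ratio differed between TDP-43 and YFP lysates by -0.41. This measure was chosen after the levels of Hsp70Bb had been seen, and so it is given as a description with no test.

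Hsp70Bc had its highest share in the YFP IPs. Its level went from 1.70 to 4.99 CPM in YFP-901, from 2.87 to 6.93 CPM in YFP-902 and from 11.2 to 29.6 CPM in YFP-201, so that it held 23.7 to 40.1% of the copies in the YFP IPs, against 13.0 to 17.9% in the YFP inputs. Its log2FC in the YFP IP was 1.53 (SE 0.93, adjusted p = 0.260), called in 1 of 19 alternatives, that with the lysate as a block (1.50, adjusted p = 0.0109), and was 0.15 in WT and 0.16 in G298S. The difference from YFP was -1.37 (SE 1.31) for WT and -1.36 (SE 1.33) for G298S and was not called. In the TDP-43 IPs Hsp70Bc held 0 to 6.32% of the copies, against 7.68 to 12.0% in the inputs of the same genotypes. The 0 in the G298S-503 IP stood among only 71 counts. The mean level of Hsp70Bc did not fall, at 2.8 CPM in the WT inputs and 3.23 in the WT IPs, and 1.29 and 1.35 CPM in G298S. Its lower share thus goes with the rise of Hsp70Bb in the same total.

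In the unbound fraction, which holds what the beads left behind, no member differed from the input. The log2FC of Hsp70Bb was -0.35 (SE 0.59) in WT, -0.55 (SE 0.61) in G298S and 0.19 (SE 0.60) in YFP. For the summed copies it was -0.25 (SE 0.82), -0.34 (SE 0.82) and 0.04 (SE 0.82). Called genes made up 16.9% of all 13349 tested in WT and 18.4% in G298S. In YFP edgeR called none (0%), with 648 genes at an unadjusted p below 0.05. Hsp70Bb held 19.35 to 43.05% of the 6-copy count in the unbound libraries, close to its range in the inputs.

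Across all 27 libraries the log2 CPM of the members other than Hsp70Bb went together. With the sum of the 5 other copies, Hsp70Aa and Hsp70Ab correlated at r = 0.97, Hsp70Ba at 0.90, Hsp70Bbb at 0.84 and Hsp70Bc at 0.81, but each of these copies is itself part of the sum. Of the members outside it, Hsp68 correlated at 0.93 and Hsp70Bb at 0.32. After group means were subtracted, Hsp70Bb reached 0.72, near the 0.75 of Hsp70Bc, and Hsp68 0.94. These are descriptions over libraries that share lysates. The genes most like the 6-copy sum were Achl (r = 0.86), the heat-inducible noncoding RNA lncRNA:alphagamma-element:CR32865 (0.72), lncRNA:CR44525 (0.72), the co-chaperone DnaJ-1 (0.68) and mfr (0.67). Within groups they were lncRNA:alphagamma-element:CR32865 (0.87), CG7848 (0.86), the small heat shock gene Hsp26 (0.86), Muc11A (0.85) and Tom70 (0.84).

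Hsp70Bb by itself was most like ey (r = 0.91), grp (0.89), prt (0.88), CG32486 (0.88) and dpr5 (0.88) over the 27 libraries. The transcription factor ey and the transporter prt are Kenyon cell markers on the list used here. In the WT, G298S and YFP IPs, ey had log2FC values of 2.08, 1.95 and 0.01, and prt 2.69, 2.25 and -0.02. Their difference from YFP was 2.07 (ey) and 2.71 (prt) for WT, and 1.94 and 2.27 for G298S. Both were picked for following Hsp70Bb in these same libraries, where Hsp70Bb was high only in the TDP-43 IPs. A rise there was thus largely set by that choice, and these values are given as a description with no test. Of the whole Kenyon list, 8 of 10 markers rose in the WT IP, 5 in the G298S IP and 5 in the YFP IP, with median log2FC values of 1.31, 0.98 and 1.04, where 10.5%, 7.39% and 10.3% of all genes were called higher. Of the 5 neuron markers, 3, 2 and 3 were called higher, with medians of 1.38, 0.68 and 1.57. The summed level of the list was 1825 to 2328 CPM in the WT IPs, 1682 to 2316 in the G298S IPs and 583.6 to 1706 in the YFP IPs, and no marker was at 0 throughout a group. Its part in the level of Hsp70Bb was not tested.

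The rest of the heat shock pathway was read from a list of 27 genes, of which 26 could be tested (Hsp22 was not). In the IPs 1 of the 26 rose in WT, 1 in G298S and 2 in YFP, and 1 fell in WT and 1 in G298S. Over all genes 10.5%, 7.39% and 10.3% were called higher and 3.03%, 2.43% and 1.42% lower in WT, G298S and YFP. The counts in the list were too small to be told apart from these shares. DnaJ-1, a heat-inducible partner that stimulates the ATPase of Hsp70, was enriched in all 3 genotypes, at 1.92 (SE 0.33, adjusted p = 4.40e-04) in WT, 2.18 (SE 0.33, adjusted p = 2.415e-04) in G298S and 2.59 (SE 0.34, adjusted p = 8.17e-05) in YFP. The J-domain co-chaperone mrj was called in the YFP IP (1.09, adjusted p = 7.29e-04) and not in the others (0.47 and 0.22), and the differences were not called. Hsc70-4, the main constitutive cytosolic Hsp70, was depleted in WT (-1.25, adjusted p = 9.95e-05) and in G298S (-1.16, adjusted p = 2.53e-04), and its value in YFP was -0.85 (adjusted p = 0.00235), short of the fold threshold. None of the 26 was called for a difference in enrichment between a TDP-43 genotype and YFP.

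The median log2FC of the 26 was -0.36 in WT, -0.38 in G298S and -0.25 in YFP, against -0.09, -0.16 and -0.14 over all genes. Other classical heat shock genes of the list were not called in the TDP-43 IPs. The largest value of the 26 in the WT IP, also not called, was 2.79 (SE 1.19, edgeR adjusted p = 0.0968) for lncRNA:alphagamma-element:CR32865. It was 0.19 in G298S and -0.52 in YFP, and WT minus YFP was 3.31 (SE 1.63, edgeR adjusted p = 0.432). Hsp83, the fly Hsp90, had log2FC values of -0.92 in WT and -0.61 in G298S. Hsp26 gave -0.25 and -0.64, and the noncoding RNA lncRNA:Hsromega 0.51 and 0.38. Hsf, the regulator of all these genes, stood at -0.68 in WT and -0.34 in G298S.

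In the inputs, 2 of the 26 were higher in WT than in YFP, and 3 were higher and 2 lower in G298S than in YFP. Over all genes 7.57% were higher and 7.37% lower in WT, and 15.4% higher and 12.0% lower in G298S. With 26 genes, the counts in the list could not be told apart from these shares. The chaperone of the endoplasmic reticulum Hsc70-3 (BiP) was higher in WT by 0.69 (adjusted p = 0.00795) and in G298S by 0.83 (adjusted p = 0.00134). Likewise mrj was higher by 0.70 (adjusted p = 0.0241) and 1.15 (adjusted p = 8.98e-04). In G298S the Hsp110 family member Hsc70Cb was higher by 0.65 (adjusted p = 0.0139), the small heat shock gene Hsp23 lower at -1.37 (adjusted p = 0.00602) and the ubiquitin ligase gene STUB1 lower at -0.47 (adjusted p = 0.0337). The largest WT value, not called, was 3.86 (SE 1.33, edgeR adjusted p = 0.0604) for Hsc70-2. Hsp60B, Hsp60C and Hsp60D stood at 3.81, 3.54 and 3.72 in WT, also not called. For G298S, Hsc70-2, Hsp60B, Hsp60C and Hsp60D gave 3.31, 3.37, 2.87 and 3.39, none called. The input term for the label prefix of WT-202 and G298S-203 rests on the TDP-43 inputs. It was read after the Hsp70 levels had been seen. In it the 11 other heat-inducible genes tested had a median log2FC of 0.49. They ranged from -0.55 (lncRNA:Hsromega) to 1.94 (lncRNA:alphagamma-element:CR32865), with Hsp67Ba, Hsp67Bc and stv at -0.01, -0.07 and 0.09. The median was 2.11 for the 7 Hsp70 members and -0.11 over all genes.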

How the data were processed

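The authors made libraries with SMART-Seq HT PLUS and deposited whole-number counts per gene, without normalization, in 1 table of 27 libraries. The submitters' processing notes name bcl2fastq 2.19.1.403, cutadapt 2.7, STAR 2.6.1d and featureCounts 1.6.3. The genome release and the handling of multi-mapped reads are not given in the sources used here. Symbols came from Ensembl release 115 (17425 of 17529 identifiers matched).

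The test was the quasi-likelihood test of edgeR 4.0.16 (R 4.3.3): TMM scaling, edgeR's filter by group, and a fit to the 18 IP and input libraries (6 groups, 12921 genes). Unbound libraries entered a fit to all 27 (13349 genes). Summed copies were added as rows after library sizes were set. Benjamini-Hochberg adjustment ran over every row of a fit. Calls for an IP, or for its difference from YFP, need a log2FC beyond 1 and an adjusted p below 0.05, and other calls the adjusted p alone. SE is the log2FC divided by the root of F. Log2 CPM values used a prior count of 2, and lysate ratios a pseudocount of 0.5 CPM. Same-numbered libraries come from 1 lysate and so are paired. Their deviations correlated at 0.06 to 0.73 (input and IP), 0.68 to 0.92 (input and unbound) and 0.04 to 0.74 (IP and unbound), with the lowest input-IP and IP-unbound values in WT-502. Alternatives were DESeq2 1.42.0, other scalings and filters, the lysate as a block and leaving out lysates; dropping WT-502 with G298S-203, dropping WT-202, YFP-201 and G298S-203, and the prefix term as a result, were chosen after seeing the data.

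Named genes are the 7 members, a heat shock pathway list, and the 5 genes with the highest correlation. Members and lists were chosen with earlier results of these data known. Promoter and protein sequences were not analysed here. The scripts were tested on simulated data.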

Additional observations from a re-analysis of the deposited data

Results flagged for a closer look

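From input to IP, the log2 ratio of Hsp70Bb to the other 5 copies changed in opposite directions with TDP-43 (2.82, 3.47 and 2.52 in WT, 1.90, 3.16 and 2.58 in G298S) and with YFP (-0.90, -1.60 and -0.96). The difference of means was 3.90. In the YFP IP the other 5 copies summed gave a log2FC of 0.63 (SE 0.94) and Hsp70Bb -0.33 (SE 0.59), neither called. The change with YFP was thus not a fall of Hsp70Bb alone. The ratio was chosen after the levels of Hsp70Bb had been seen, so no test of it is given. The YFP line also differed in background and lacked mCD8-RFP, and YFP-901 and YFP-902 carry a label prefix that no TDP-43 lysate has, none of which can be told apart from TDP-43. The ratio also rests on single-copy counts, which are uncertain for reads that match several copies or an Hsp70 leader in a transgene.

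For Hsp70Bbb, the log2 ratio of IP to input was above 0 in every WT lysate (0.03 to 0.54) and below 0 in every G298S lysate (-0.31 to -0.19). The means differed by 0.53. In G298S-503 and G298S-506 the IP held 0 counts and the input 4 and 3. In WT-505 the IP held 3 counts and the input 1. The pseudocount of 0.5 CPM thus largely set these ratios, and the share of all genes split in this way was not computed. In the fit across all genes WT minus G298S was 1.105 (SE 2.16, edgeR adjusted p = 0.9998), and the gene had 0 to 59 counts per library.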

How the results depend on the processing

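Hsp70Bb stayed called in the WT IP (log2FC 2.64 to 3.68, adjusted p up to 0.0200, edgeR or DESeq2) and in the G298S IP (2.54 to 3.52, adjusted p up to 0.0450) under all 19 alternatives. Its difference from YFP was called in 9 of 19 for WT: with DESeq2 (3.19), library sizes alone (3.47), mitochondrial and rRNA genes left out (3.4005), all 27 libraries (3.46), the lysate block (3.59), the unbound fraction as reference (4.002), without WT-202, YFP-201 and G298S-203 (3.94) and without WT-502 or WT-202 (2.97 to 4.01 over lysates left out 1 at a time). For G298S it was called in 6 of 19: with DESeq2 (2.97), library sizes alone (3.65, under a scaling that gave a median difference of 0.66 across the table and 1446 called genes), the block (3.02), the unbound reference (3.93) and without WT-502 or WT-202 (2.82 to 3.22). No fit that left out a G298S or a YFP lysate called the G298S difference. WT minus G298S turned to -0.17 with library sizes alone and ran from -0.0027 to 1.04 over left-out lysates.

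With the lysate as a replicate block, the pairing made the summed copies called in WT (1.84) and G298S (1.53). They were also called without WT-202, YFP-201 and G298S-203 (2.31 and 1.78) and, for G298S, with library sizes alone (2.30), a scaling that moved the median of all genes to 0.72. Leaving out 1 lysate gave 1.12 to 2.31 in WT and 1.31 to 1.78 in G298S. Without Hsp70Bb the difference of the sum from YFP reversed (-0.56 and -0.55). WT minus G298S, at -0.01, turned positive without a filter on low counts (0.0036), with the block (0.31), with Hsp68 added (0.0217) and without the 3 lysates (0.53), and ran from -0.37 to 0.89 over left-out lysates.

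In the inputs, the sum for WT over YFP, at -0.00, became 0.0908 with DESeq2, 0.0767 with its size factors and 0.0543 with Hsp68 added and 0.37 without WT-502 and G298S-203 together, and ran from -1.46 to 0.77 over left-out lysates. WT over G298S ran from -0.37 (without WT-202) to 1.76, and G298S over YFP from -1.76 to -0.31. In the unbound fraction WT reached 0.0392 without the 3 lysates (-0.28 to 0.0533 over left-out lysates), and YFP turned to -0.0119 with the block, -0.0231 with Hsp68 added, -0.0207 without Hsp70Bb and -0.0796 without the 3 lysates (-0.0761 to 0.0925). For the sum without Hsp70Bb, WT gave -0.0025 with DESeq2, -0.0924 without WT-502 and G298S-203 together and -0.0909 to 0.58 over left-out lysates, and G298S -0.0881 to 0.19. Hsp68 reversed in WT with library sizes alone (0.32), all 27 libraries (0.0028) and the unbound reference (0.25), and in G298S with DESeq2 (-0.0382), its size factors (-0.0122), no filter (-0.0146), the block (-0.0163) and over left-out lysates (-0.0927 to 0.16). None of these reversals passed a threshold in either direction, and their cause was not tested. Hsp70Bbb and the G298S-503 IP, with few counts, limit what can be seen for single copies.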
